A study of Mus musculus with 2 samples.

Results

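The TAM receptors are the 3 receptor tyrosine kinases Tyro3, Axl and Mertk, and their main ligands are the secreted proteins Gas6 and Pros1 (protein S). These 5 genes were taken by symbol from a deposited table of 36227 Ensembl genes, in which all 5 have a row with counts. They are a receptor and ligand family, but were chosen by the counts in these libraries, since the family was proposed with those counts already known. The values below are therefore a description and carry no test. RNA was measured in mature mouse oocytes of the ICR strain, held at the metaphase of meiosis II (MII) and collected after natural ovulation. The aging library came from females of 12 months and the young library from females of 3 months, with no other treatment named for either. Each age has 1 library, made from 18 oocytes pooled from 6 females at 3 oocytes each. With 1 library per age there are no replicates, so no p-value and no spread between animals can be given. Intervals below are exact 95% intervals that cover counting error only. They treat reads as independent, which reads of amplified cDNA are not, so they are too narrow for the number of molecules.

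Gas6 and Pros1 bind phosphatidylserine, a lipid that dying cells and some living cells expose on their outer surface, through a domain whose glutamates are carboxylated in a vitamin K-dependent step. Their other end binds a TAM receptor, which then signals through its kinase domain. Macrophages and the pigment epithelium of the retina use Mertk in this way to engulf dying cells and shed photoreceptor membrane. In mouse oocytes, proteins that recognise phosphatidylserine, Mertk among them, have been linked to the recognition of that lipid on sperm, and Gas6 is known as a transcript stored by the oocyte. Mature oocytes make very little new RNA, so the RNA measured is largely what was stored during growth.

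The 3 receptors are related in sequence, and reads of one could in principle be counted for another. The stretch of the longest transcript that encodes the conserved kinase motif by which TAM receptors are recognised is shown to let them be compared in a conserved part, with capitals for bases that all 3 share (5′ to 3′, GENCODE mouse release 21).
Mertk: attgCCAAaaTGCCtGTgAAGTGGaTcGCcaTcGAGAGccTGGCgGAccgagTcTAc
Axl: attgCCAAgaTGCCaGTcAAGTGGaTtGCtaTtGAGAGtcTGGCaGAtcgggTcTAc
Tyro3: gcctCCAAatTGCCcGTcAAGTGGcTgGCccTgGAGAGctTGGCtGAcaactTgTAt
Of 57 bases 34 were shared by all 3 receptors, in runs of at most 6. Against Mertk, 47 bases were the same in Axl and 38 in Tyro3. None of the 4268 words of 35 bases in the Mertk transcript occurred, on either strand, in a transcript of any other gene, and the same held for Axl, Tyro3 and Pros1. In Gas6, 3 of 2514 words, or 0.119%, also lay in Tmem255b, an overlapping gene on the opposite strand. Only exact matches of 35 bases were sought, and the aligner and the mismatches it allowed are not known here. Whether reads of one receptor were counted for another was therefore not tested.

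Mertk (ENSMUSG00000014361, chromosome 2) was the member that set the libraries apart. It had 1864 counts in the aging library, against 51 in the young library. Scaled to the library totals these are 100.2 counts scaled to a common total (CPM; 95.7 to 104.9) in aging oocytes and 2.62 CPM (1.95 to 3.44) in young oocytes. The aging library was therefore 38.3-fold higher for this receptor (29.0 to 51.6), a log2 ratio of 5.26. Each library pools 18 oocytes, so a large difference in some oocytes and a smaller one in all of them cannot be told apart.

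**Figure D1:**
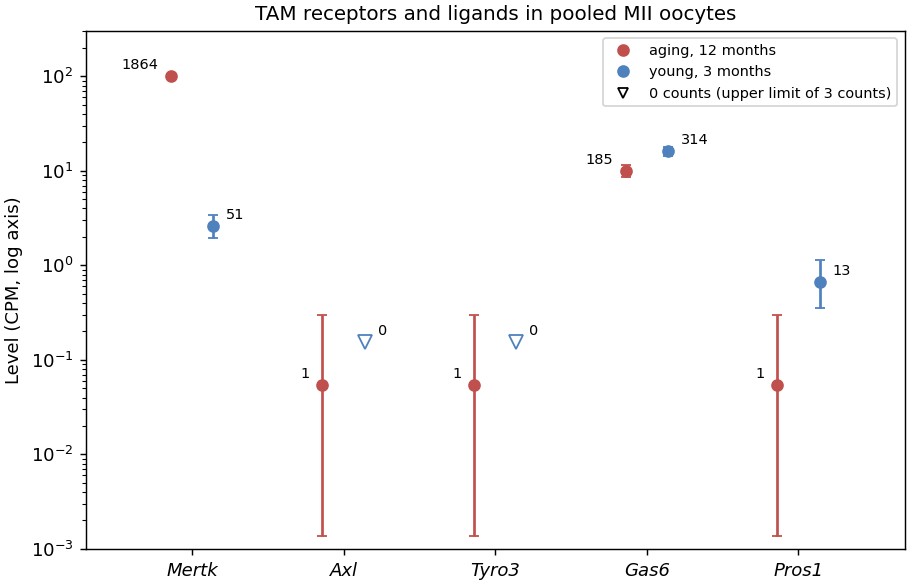
Level of each TAM receptor and ligand in CPM (log axis) in the aging library (red, left) and the young library (blue, right), with 95% counting intervals and the number of counts beside each point. Open triangles mark 0 counts and stand at the limit of 3 counts. Mertk had 1864 counts in the aging and 51 in the young library, and Axl and Tyro3 had at most 1 count in either.

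Most genes differed far less than Mertk. Across 10211 genes averaging 20 or more counts, the median log2 ratio of aging over young was 0.43 with quartiles of −0.28 and 1.09. Of these genes 27.9% were at least 2-fold higher in the aging library and 10.6% at least 2-fold lower. The ratio of Mertk was the eighteenth highest, with 10193 genes below it. The 17 genes above it all had fewer counts in the aging library than Mertk, led by Xdh with 223 counts in the aging and 2 in the young library. Of the 17, Tceal8 had the most counts, 1611 in the aging and 36 in the young library, a log2 ratio of 5.55. A minimum of 1864 counts in the aging library, the count of Mertk itself, was set by its value and carries no test. Among the 1521 genes that reach it, Mertk had the highest ratio. The next was mt-Tq, a mitochondrial transfer RNA gene, which was 35.8-fold higher with 5439 counts in the aging and 159 in the young library. Relative to the median gene the log2 ratio of Mertk was 4.83, which is 28.5-fold.

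**Figure D2:**
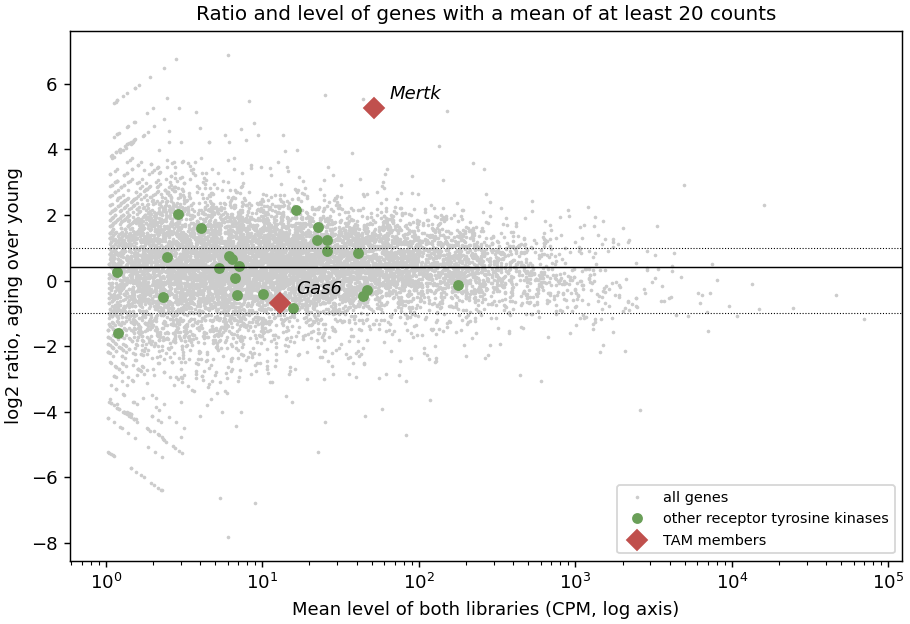
Log2 ratio of aging over young (vertical axis) against the mean level of both libraries in CPM (log axis) for 10211 genes averaging 20 or more counts, with other receptor tyrosine kinases in green and TAM members as red diamonds. The solid line is the median gene at 0.43 and dotted lines mark 2-fold. Mertk lies at 5.26 and Gas6 at −0.70.

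Genes whose transcripts resemble that of Mertk in length and base composition had a median ratio far below its own. The longest protein-coding Mertk transcript is 4302 bases long with a GC content of 48.1%, and the 99 genes of its length and GC class had a median log2 ratio of 0.66. Reduced by that median, the log2 ratio of Mertk was 4.60. A ratio as high as that of Mertk would lie above almost any class median, and the range within the class is not given. Whether length or GC content bears on the ratio was not tested. The genes next to Mertk on chromosome 2 did not share its difference. Anapc1, a subunit gene of the anaphase-promoting complex on one side, had 2930 counts in the aging and 2647 in the young library. Tmem87b, on the other side, had 568 counts in the aging and 768 in the young library. These neighbours were looked up after the values of Mertk were seen. The annotation also places an antisense gene, Gm14011, and a small nucleolar RNA gene, Gm23172, within the span of Mertk. No counts for either are used here, and the sources used here do not say whether counting used strand.

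The other receptors were close to or below what these libraries can detect. Axl (ENSMUSG00000002602, chromosome 7), a receptor that binds Gas6 with high affinity, had 1 count in the aging library and 0 in the young library. Tyro3 (ENSMUSG00000027298, chromosome 2), the receptor best known from the nervous system, likewise had 1 count in the aging library and 0 in the young library. A single count corresponds to 0.0538 CPM in the aging library, with an interval of 0.00136 to 0.3. For a count of 0 the limit used here is 3 counts, or 0.154 CPM in the young library, where the exact interval ends at 0.189 CPM. Both libraries are at or under 3 counts for both genes, so no ratio is given for either. Mertk made up 1864 of 1866 receptor counts in the aging library, or 99.9% (99.6 to 99.99). It made up all 51 receptor counts in the young library, which allows a share of 93.0% or more.

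Gas6 (ENSMUSG00000031451, chromosome 8), the ligand of all 3 receptors, was lower in the aging library. It had 185 counts in the aging library, against 314 in the young library, or 9.95 CPM (8.57 to 11.5) and 16.1 CPM (14.4 to 18.0). That is 1.62-fold lower (1.35 to 1.95), a log2 ratio of −0.70, inside the 2-fold rule when library totals are used. Relative to the median gene it was −1.12, or 2.18-fold lower, beyond 2-fold, where 17.3% of all genes are at least 2-fold lower and 16% at least 2-fold higher. Of the 10211 genes 14.9% had a lower ratio than Gas6. The overlapping Tmem255b was also lower, with 107 counts in the aging and 355 in the young library. Without knowledge of strand, reads of this pair of genes cannot be told apart where they overlap, so the Gas6 counts are uncertain to that extent. In the annotated transcripts, 3 of 2514 words of 35 bases in Gas6 were shared with Tmem255b.

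Pros1 (ENSMUSG00000022912, chromosome 16), which acts as a cofactor in anticoagulation as well as a ligand of Mertk and Tyro3, was near the detection limit. It had 1 count in the aging library, against 13 in the young library, or 0.0538 CPM (0.00136 to 0.3) and 0.668 CPM (0.355 to 1.14). The ratio was 12.4-fold lower, with an interval from 1.86-fold to 528-fold lower. With 5 counts added to each library its log2 ratio was −1.52, against −3.63 without. With a mean under 20 counts, Pros1 is not among the genes compared with the whole table. Gas6 thus held 185 of 186 ligand counts in the aging library and 314 of 327 in the young library, or 99.5% (97.0 to 99.99) and 96.0% (93.3 to 97.9).

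The order of receptor and ligand was opposite in the libraries. Per length of the longest transcript, as transcript-length-scaled counts brought to a common total (TPM), Mertk stood at 46.4 TPM (44.3 to 48.5) and Gas6 at 7.77 TPM (6.69 to 8.97) in the aging library. In the young library Mertk stood at 1.13 TPM (0.839 to 1.48) and Gas6 at 11.7 TPM (10.5 to 13.1). The receptor's TPM level was thus 5.97 times that of the ligand in the aging library (5.13 to 6.98), and in the young library 0.0962 times (0.0701 to 0.13). A ratio taken within a library does not depend on how the libraries are scaled. Of all 2052 member counts in the aging library Mertk took 90.8% (89.5 to 92.1), and of 378 in the young library 13.5% (10.2 to 17.4). Pros1, at 0.0324 TPM in the aging and 0.374 TPM in the young library, lay below both, and its aging level could not be ordered against Axl or Tyro3, since each rests on 1 count.

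Among receptor tyrosine kinases, the cell-surface receptors that signal by phosphorylating tyrosine, Mertk changed its place. Of 47 such genes with counts, TAM receptors included, Mertk was second in TPM in the aging library and 17th in the young library. In both libraries the first was Ryk, a Wnt co-receptor with an inactive kinase, at 119 TPM in the aging and 120.5 TPM in the young library. In the aging library Musk, the receptor of the neuromuscular junction, followed Mertk at 30.6 TPM (28.7 to 32.6), below its counting interval. Kit, the stem cell factor receptor through which oocytes receive growth signals, was at 14.0 TPM in the aging and 17.9 TPM in the young library.

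Of 55 other receptor tyrosine kinases on the list, 23 averaged 20 or more counts. Of these 6 (26.1%) were at least 2-fold higher in the aging library and 1 (4.35%) at least 2-fold lower, against 27.9% and 10.6% of all genes. Their median log2 ratio was 0.43, equal at this precision to that of all genes, and the highest was 2.14. Epha3, an ephrin receptor gene that is also a neighbour of Pros1, was 4.40-fold higher with 496 counts in the aging and 118 in the young library. Tek, the angiopoietin receptor, was 4.09-fold higher with 86 counts in the aging and 22 in the young library. Egfr, the epidermal growth factor receptor, was 3.10-fold higher with 637 counts in the aging and 215 in the young library. Kit, in contrast, was 1.37-fold lower with 687 counts in the aging and 987 in the young library. The metabolic receptors Igf1r and Insr were 1.58-fold and 1.66-fold higher. No other receptor kinase above the count minimum thus came near the 38.3-fold of Mertk.

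Other genes whose products recognise phosphatidylserine or bridge it to a receptor were present in part. Of the 20 on the list, 4 had no counts and 10 averaged 20 or more. Of these 10, 2 (20%) were at least 2-fold higher and 0 lower, against 27.9% and 10.6% of all genes, and their median log2 ratio was 0.56. Centred on the median of all genes, 1 was higher and 1 lower, against 16% and 17.3% of all genes. Havcr1, which encodes the phosphatidylserine receptor Tim-1, was 5.16-fold higher with 69 counts in the aging and 14 in the young library. Itgb3 and Itgb5, integrin subunits that pair with the αv subunit to bind the bridging protein Mfge8, were 2.03-fold and 1.86-fold higher. Mfge8 itself had 0 counts in the aging library and 9 in the young library. It was at least 2.86-fold lower against a limit of 3 counts, with the near end of the counting interval at 1.88-fold.

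The receptors linked to sperm recognition in mouse oocytes differed among themselves, and these were named for that role after their values were seen. Timd4, which encodes Tim-4, had 463 counts in the aging and 292 in the young library, 1.66-fold higher. Cd36, a scavenger receptor, had 176 counts in the aging and 141 in the young library, 1.31-fold higher. Adgrb1, which encodes Bai1, was below the count minimum with 3 counts in the aging and 14 in the young library. The wider set of phosphatidylserine receptors and bridging proteins, TAM members included, has 21 genes with counts. By TPM, Mertk was second of these 21 in the aging library and 10th in the young library. The first in both was Jmjd6, at 97.1 TPM in the aging and 90.1 TPM in the young library, a gene once described as a phosphatidylserine receptor and now known to encode a nuclear hydroxylase.

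**Figure D3:**
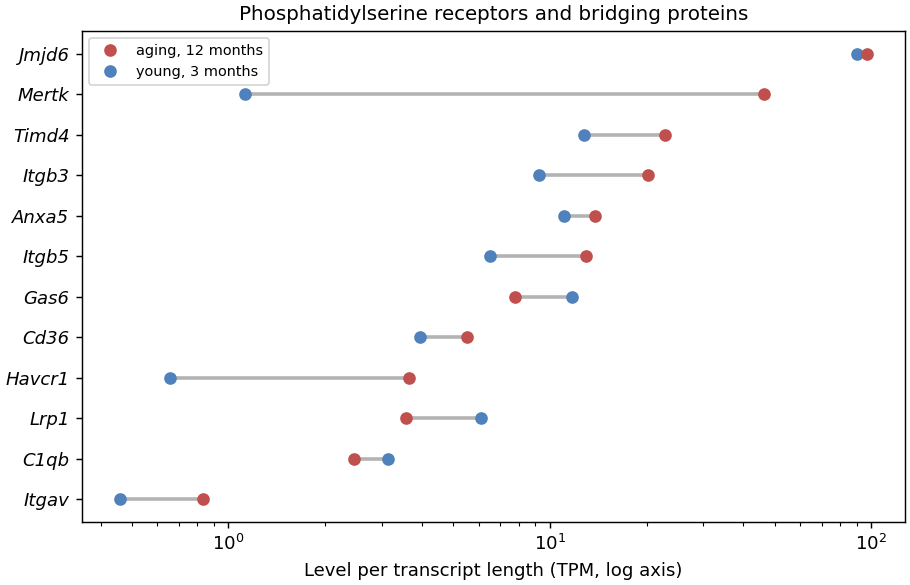
Level per transcript length in TPM (log axis) of phosphatidylserine receptors and bridging proteins averaging 20 or more counts, in the aging library (red) and the young library (blue), ordered by the aging level. The widest gap is that of Mertk, at 46.4 TPM in the aging and 1.13 TPM in the young library, while the aging point is the lower one for Gas6, Lrp1 and C1qb.

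Genes that control the exposure of phosphatidylserine had the highest median of the lists around the TAM system. They are flippases that return the lipid to the inner leaflet, scramblases that expose it, and proteins that accompany either kind. Of 17 on the list, 11 averaged 20 or more counts, and 7 of these (63.6%) were at least 2-fold higher in the aging library and 0 lower, against 27.9% and 10.6% of all genes. The list's median log2 ratio was 1.22. Centred on the median of all genes it was 0.80, with 5 at least 2-fold higher and 1 lower, against 16% and 17.3% of all genes. Tmem30a, the subunit that flippases need to leave the endoplasmic reticulum, was 4.98-fold higher with 428 counts in the aging and 90 in the young library. Atp8a2, a flippase gene best known from neurons, had 86 counts in the aging library and 1 in the young library, a ratio of 90.1-fold with an interval of 15.7 to 3598.

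Genes that act on the maturation of the ligands lay in both directions. Of 7 genes of the carboxylation step and of proprotein cleavage, 4 averaged 20 or more counts, 3 of them at least 2-fold higher and 1 lower, where 27.9% of all genes are higher and 10.6% lower. Their median log2 ratio was 1.12. Ggcx, the gamma-glutamyl carboxylase that both ligands require, was 2.27-fold higher with 52 counts in the aging and 24 in the young library. Calu, which encodes calumenin, an inhibitor of that carboxylase, was 3.04-fold higher with 813 counts in the aging and 280 in the young library. Furin, a proprotein convertase gene, was 2.25-fold lower with 15231 counts in the aging and 35856 in the young library. Vkorc1, the vitamin K epoxide reductase gene, was not analysed here. Relative to the median gene, 1 of these 4 was at least 2-fold higher and 1 lower, where 16% and 17.3% of all genes are.

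The proteases that cut Mertk and Axl from the cell surface differed little. Adam17, the main sheddase of Mertk, had 1498 counts in the aging and 1445 in the young library, 1.09-fold higher (1.01 to 1.17). Adam10 was 1.48-fold higher with 3372 counts in the aging and 2382 in the young library. Their list of 6 also holds inhibitors of metalloproteases, which lay in opposite directions. Timp1 had 0 counts in the aging library and 108 in the young library, which is at least 34.4-fold lower against 3 counts, with the near end of the counting interval at 27.5-fold. Timp2 was 6.13-fold higher with 41 counts in the aging and 7 in the young library. Other proteins reported as TAM ligands were within 2-fold. Tub had 2564 counts in the aging and 2191 in the young library, and the galectin gene Lgals3 had 60 counts in the aging and 70 in the young library.

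Of 30 signalling partners of TAM receptors, 21 averaged 20 or more counts, 3 (14.3%) at least 2-fold higher and 2 (9.52%) lower, against 27.9% and 10.6% of all genes. Their median log2 ratio was 0.08. Pik3r1, the regulatory subunit of phosphoinositide 3-kinase that docks on activated receptors, was 7.99-fold higher with 1938 counts in the aging and 254 in the young library. Pik3cb, a catalytic subunit of that kinase, was 3.24-fold higher with 263 counts in the aging and 85 in the young library. Plcg1, which encodes phospholipase C gamma 1, was 4.19-fold lower with 18 counts in the aging and 79 in the young library. Relative to the median gene, 2 of the 21 were at least 2-fold higher and 6 lower, against 16% and 17.3% of all genes.

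Of 18 genes of the engulfment machinery, 10 averaged 20 or more counts, 2 at least 2-fold higher and 1 lower, beside 27.9% and 10.6% of all genes. Their median log2 ratio was 0.21. Relative to the median gene the balance turned, with 1 higher and 3 lower, where 16% and 17.3% of all genes are. The small GTPase genes Cdc42 and Rac1, which drive the actin cup, were 2.92-fold and 2.15-fold higher, with 11408 counts of Rac1 in the aging and 5544 in the young library. Bcar1, a scaffold upstream of Rac activation, was 4.85-fold lower with 48 counts in the aging and 244 in the young library. Over all 63 genes around TAM signalling that averaged 20 or more counts, out of 101 on the 7 lists, 18 (28.6%) were at least 2-fold higher and 5 (7.94%) lower, near the 27.9% and 10.6% of all genes. Their median of 0.44 was also near that of all genes. Relative to the median gene the counts were 11 higher and 13 lower, against 16% and 17.3% of all genes.

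**Figure D4:**
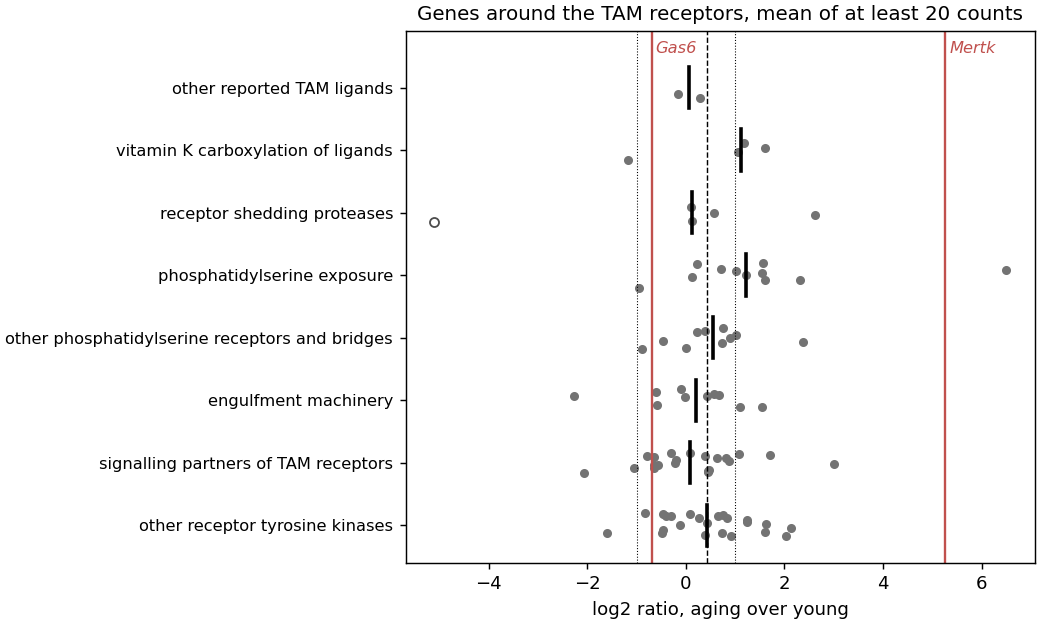
Log2 ratio of aging over young for genes averaging 20 or more counts in each list around the TAM receptors (grey points, open where a library has 0 counts), with the list median as a black bar. The dashed line is the median gene, dotted lines mark 2-fold and red lines mark Gas6 at −0.70 and Mertk at 5.26. The phosphatidylserine exposure list has the highest median, 1.22.

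The samples were rich in oocyte transcripts, and all 12 oocyte markers had counts in both libraries. Their sum was 91815 CPM in the aging and 164648 CPM in the young library, chiefly Gdf9 and H1foo, with 795892 and 730820 counts in the aging library. Of these 12 markers, 2 were at least 2-fold higher in the aging library and 3 lower, against 27.9% and 10.6% of all genes. Their median log2 ratio was −0.56. Nlrp5 was 2.54-fold and Dppa3 2.16-fold higher, while Ooep was 2.75-fold, Gdf9 2.27-fold and Zp1 2.22-fold lower. Relative to the median gene, 0 were at least 2-fold higher and 5 lower, against 16% and 17.3% of all genes. Macrophages also express Mertk. Of their defining transcripts, Ptprc had 0 counts in the aging and 1 in the young library, Adgre1 had 2 in the aging and 0 in the young, and Csf1r and Itgam each had 1 in the aging and 0 in the young. Of 15 macrophage and leukocyte markers 11 had counts, and their sum was 12.2 CPM in the aging and 12.4 CPM in the young library, chiefly 3 genes. Cd68 had 84 counts in each library, Laptm5 had 30 in the aging and 101 in the young, and Mrc1 had 97 in the aging and 46 in the young, 2.21-fold higher. Markers of cumulus and granulosa cells, 12 of 18 with counts, summed to 58.3 CPM in the aging and 28.7 CPM in the young library. Most of that sum was Cyp19a1, with 1056 counts in the aging and 436 in the young library. Fshr had 16 counts in the aging and 0 in the young, Vim had 0 in the aging and 51 in the young, Inha 0 in the aging and 14 in the young, and Has2 2 in the aging and 0 in the young. Blood and endothelial markers, 7 of 13 with counts, summed to 51.9 CPM in the aging and 27.3 CPM in the young library, chiefly Pecam1. Pecam1 had 723 counts in the aging and 381 in the young library. Kdr had 151 in the aging and 117 in the young, and Tek had 86 in the aging and 22 in the young. Of these 3, 1 was at least 2-fold higher and 0 lower, against 27.9% and 10.6% of all genes. Cdh5 had 5 counts in the aging and 0 in the young library. Vwf had 1 in the aging and 9 in the young, and Alas2 0 in the aging and 1 in the young. Oviduct epithelium markers, 8 of 8 with counts, summed to 279.5 CPM in the aging and 242.4 CPM in the young library, chiefly Cdh1, with 0 counts of the oviductal Ovgp1 in the aging and 4 in the young. The part of macrophages and of cumulus, endothelial and oviduct cells in the results was not tested.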

How the data were processed

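The members and gene lists were chosen with earlier results of these data known. Per the labels' protocols, 18 oocytes were lysed together, their RNA was reverse transcribed with oligo(dT) primers, and cDNA was amplified (PCR, no molecular identifiers) and sequenced on a SOLiD instrument. Oligo(dT) priming reads RNA through its poly(A) tail, and reads are not independent molecules. Per the submitters' processing notes the build was mm9, while the sources used here name no aligner, counting program or annotation.

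The authors deposited raw counts per Ensembl gene for 18364 genes, summing to 18597656 in the aging and 19475110 in the young library. The authors' deposited log2 fold changes, score, p-value and q-value columns compare the reads of 1 library per age and support no result here. In the authors' deposited table the scaled log2 ratio of young over aging is −5.26 for Mertk, 0.70 for Gas6 and 3.63 for Pros1.

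From the counts, CPM (library totals), TPM (longest protein-coding transcript), log2 ratios and exact intervals (Poisson for levels, Clopper-Pearson for ratios and shares) were computed. A count of 0 was set to 3 in ratios. Genes averaging 20 or more counts were compared by a rule of 2-fold. Symbols, lengths and GC content came from GENCODE mouse release 21 (93.7% of counted genes with a symbol), built on a genome other than mm9. Its coordinates were used only to find overlapping and neighbouring genes, and none is printed. Members are named always, list genes if among the 3 furthest from equality, and Ggcx, Vkorc1, Adam10, Adam17, Mfge8, Kit, Igf1r and Insr whatever their values. For each member above the minimum, the 3 genes nearest in the log2 CPM of both libraries are also named. Some genes that this rule names are not reported here. Alternatives were other scalings (TMM by edgeR 4.0.16 and size factors by DESeq2 1.42.0 in R 4.3.3), other count minimums, added counts and a length and GC correction. The ratio code, tested on simulated data, ran in Python 3.11.15 (scipy 1.17.1, numpy 2.4.6, pandas 2.3.3), with figures from matplotlib 3.10.9.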

Additional observations from a re-analysis of the deposited data

How the results depend on the processing

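No paired analysis was possible because each age has 1 library, and for the same reason no library could be left out. The other scalings lowered every log2 ratio, by 0.37 with TMM, 0.36 with DESeq2 size factors, 0.43 with centring on the median gene and 0.29 without the 100 most abundant genes in the totals. By construction they move all genes alike. The ratio of Mertk was 4.83 when centred and 4.60 with the length and GC correction, and within its counting interval otherwise. The ratio of Gas6 was −1.07 with TMM, −1.05 with size factors, −1.12 when centred and −0.99 without the 100 most abundant genes, so that 3 of these 4 scalings place it beyond 2-fold. It stayed inside 2-fold at −0.66 with the length and GC correction and at −0.68 with 5 counts added. Pros1 stayed within its wide interval, at −1.52 with 5 counts added, no length and GC value could be had for it, and none of the alternatives was applied to Axl and Tyro3, which have no ratio. Among the 23 other receptor tyrosine kinases, the 6 higher became 4 with each of the 4 scalings and 4 with a minimum of 100 counts. The 6 became 2 with the length and GC correction and, over all 44 with counts, 15 with no count minimum. The 1 lower became 2 with each of the 4 scalings, 8 over those 44 and 0 with a minimum of 100 counts. With no minimum, setting 0 to 3 counts puts some genes on the wrong side. Csf1r, Flt4, Ret and Lmtk3, each with 1 count in the aging and 0 in the young library, count as lower. Fgfr4 and Tie1, each with 0 counts in the aging and 1 in the young library, count as higher. For the genes around TAM signalling, the 18 higher became 11 with each of the 4 scalings and 10 with the length and GC correction. The 5 lower became 11 with TMM, 10 with size factors, 13 when centred, 8 without the 100 most abundant genes, 8 with the length and GC correction, 17 with no minimum and 3 with a minimum of 100. The 17 lower with no minimum include Nck2, which had 1 count in the aging and 0 in the young library. Of all genes, 27.9% are higher and 10.6% lower with library totals, and 16% and 17.3% when centred. For the other settings, shares over all genes are not given, so these counts cannot be set against them. With 1 library per age, the depth limits Axl, Tyro3 and Pros1 most.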

Other observations

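The genes nearest to Mertk in pattern are named here, and how many genes share its pattern was not counted. Over the 2 libraries, the gene nearest to it in log2 CPM was Tceal8, of the transcription elongation factor A-like family, with 1611 counts in the aging and 36 in the young library, 46.9-fold higher. The next were Gabra3, a GABA-A receptor subunit gene, with 1304 counts in the aging and 93 in the young library, and Gm22000, with 899 in the aging and 85 in the young library. Their distances to Mertk were 0.54, 1.01 and 1.28 log2 units. Close to Gas6 lay Kdf1, with 187 counts in the aging and 316 in the young library, and Slc24a5, with 190 counts in the aging and 320 in the young library, both within 0.05 log2 units. A likeness over 2 libraries is a weak one.

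Other genes for proteins with the vitamin K-dependent Gla domain that Gas6 and Pros1 carry were mostly near or below the detection limit. Of 12 on the list 6 had counts and 3 averaged 20 or more, with 1 at least 2-fold lower and 0 higher, where 10.6% of all genes are lower and 27.9% higher. Their median log2 ratio was −0.53. Proc, which encodes protein C, the protease that protein S assists, had 6 counts in the aging and 43 in the young library, 6.84-fold lower (2.90 to 19.7). Prrg1, a transmembrane Gla protein gene, was 1.45-fold lower with 142 counts in the aging and 215 in the young library. F2, which encodes prothrombin, was 1.55-fold higher with 80 counts in the aging and 54 in the young library.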
